A study of Mus musculus with 18 samples.

Results

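Regulatory T cells (Treg) that lacked Neuropilin 1 on their surface (Nrp1-negative Treg) were compared with conventional T cells (Tconv) from wild type mice. RNA sequencing gave 3 libraries of each population, 6 of the 18 libraries in the series, and the members were taken from the sample titles. The wild type libraries came from spleens of C57BL/6 Foxp3EGFP reporter mice, in which green fluorescent protein reports Foxp3, and these mice are labelled wild type for Cd28. The other libraries used here were 3 of wild type Nrp1+ Treg, from the same strain, and 3 each of Nrp1-negative Treg and Tconv from CD28-/-Foxp3EGFP mice, which lack the costimulatory receptor CD28 and carry the same reporter. The study calls the Nrp1-negative subset peripheral (pTreg) and the Nrp1+ subset thymic (tTreg). The labels give no age, sex, cell number or pooling. They do not say whether replicates are separate mice, and p-values therefore measure the spread between these libraries, which may be technical.

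Treg restrain immune responses, and the transcription factor Foxp3 sets and maintains their program. They carry the high-affinity interleukin-2 receptor and depend on interleukin-2 made by other T cells, whose signal runs through STAT5. Some Treg arise in the thymus and others from conventional CD4 T cells in peripheral tissues, and Nrp1 and Helios (Ikzf2) are in common use as markers of thymic origin in mice. Tconv from an unimmunised spleen are mostly naive cells, with a minority of memory and effector cells.

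The deposited values are FPKM, fragments scaled to transcript length and to the library's mapped total, with 1 value per gene and library. A gene was tested where 3 or more of the 6 libraries reached an FPKM of 1, which left 11471 of 26665 listed genes. All changes below are differences of mean log2(FPKM + 1), Nrp1-negative Treg minus Tconv, with the standard error of limma over n = 3 libraries each. This scale understates the fold of genes with low FPKM. A gene is called higher or lower where its p, adjusted over all tested genes by the Benjamini-Hochberg method, is under 0.05. limma adds prior degrees of freedom, here a median of 94.5 beside 4 residual ones, or 2.41 after quantile normalization. In the main fit standard errors and p-values thus rest mostly on a spread pooled over genes, and little on each gene's own. Without Nrp1-negative Treg replicate 1 the median prior was 2.46, while each other fit of this comparison that left out 1 library had an infinite one. Calls lost in that fit therefore do not measure dependence on that library alone. The values carry no read counts, which leaves the depth unknown. In bulk RNA, fewer cells of a type and less RNA per cell cannot be told apart.

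The libraries numbered 1 stood apart. The median log2 value of the tested genes was 2.99 in Nrp1-negative Treg replicate 1, against 3.65 to 3.82 in the other 5 libraries. Of all FPKM, 20.8%, 10.3% and 3.97% fell on the small RNA locus Mir5105 in the Nrp1-negative Treg libraries, against 19.4%, 3.8% and 2.98% in Tconv. The heat shock gene Hspa1a was at 36.9, 9.01 and 25.7 FPKM in Nrp1-negative Treg, against 86.2, 5.48 and 19.0 FPKM in Tconv. Spearman correlations between the 6 libraries, over all listed genes, were between 0.914 and 0.959. Tconv replicate 1 had an FPKM sum of 994139, against 524479 to 688042 in the other 5 libraries. The median change over all tested genes was -0.22, and 0.02 without both libraries numbered 1. It was 0.03 without Nrp1-negative Treg replicate 1 alone and -0.23 without Tconv replicate 1 alone. Each change is to be read against the median of -0.22. The counts over all genes are therefore given with and without both of these libraries. For lists and single genes the values without them are given only in part.

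The sort was visible in its own markers. Foxp3 (chromosome X, 7579676 to 7595243, on GRCm38.p6 by RefSeq, as for all positions here) was at 55.95, 106 and 107 FPKM in Nrp1-negative Treg, against 0.203, 0.184 and 0.285 FPKM in Tconv. Nrp1 (chromosome 8, 128358591 to 128505476) was at 0.579, 0.871 and 0.911 FPKM in Nrp1-negative Treg, 55.6, 69.3 and 83.5 FPKM in Nrp1+ Treg and 2.99, 4.99 and 5.08 FPKM in Tconv. Neither gene's groups overlapped, and both are set by the reporter and the gate, so they check the labels and are no finding. Nrp1 was thus lower in Nrp1-negative Treg than in Tconv (-1.56 ± 0.30), which the labels do not describe as gated on Nrp1. With all 18 libraries in the fit its adjusted p was 0.121. The T cell genes Cd3e (306, 524 and 441 FPKM in Nrp1-negative Treg, against 609.7, 483 and 461 FPKM in Tconv) and Cd4 (112, 192 and 181 FPKM in Nrp1-negative Treg, against 306, 267 and 262 FPKM in Tconv) were high in all 6 libraries.

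Markers of B cells, NK cells, CD8 T cells and dendritic cells were low, while the plasma cell, myeloid and erythroid and platelet lists reached higher sums. The 9 B cell markers summed to between 4.96 and 8 FPKM in Nrp1-negative Treg, against 1.75 to 2.19 FPKM in Tconv, and 1 of the 2 tested rose. That gene was Cd79b, a chain of the B cell receptor complex, at 3.31, 6.53 and 3.9 FPKM in Nrp1-negative Treg, against 0.791, 0.641 and 0.446 FPKM in Tconv (1.74 ± 0.30), whereas the defining markers Ms4a1 and Pax5 were at no more than 0.122 FPKM in any of the 6 libraries. NK cell markers summed to between 0.345 and 0.947 FPKM in Nrp1-negative Treg, against 1.71 to 2.16 FPKM in Tconv, with 0 of 5 high enough to be tested. Markers of CD8 T cells summed to 6.94 to 9.36 FPKM in Nrp1-negative Treg and 7.57 to 9.95 FPKM in Tconv. Those of dendritic cells summed to 0.451 to 0.973 FPKM in Nrp1-negative Treg and 0.471 to 1.46 FPKM in Tconv, and those of plasma cells to 19.9 to 33.5 FPKM in Nrp1-negative Treg and 17.4 to 24.4 FPKM in Tconv. Of these 3 lists 2 genes could be tested, and limma called 0 of them, with 0 at an unadjusted p under 0.05. Myeloid markers summed to 64.2 to 139 FPKM in Nrp1-negative Treg and 65.8 to 92.7 FPKM in Tconv, with 1 of 7 called, the neutrophil calcium-binding protein gene S100a8 (9.69, 9.18 and 34.1 FPKM in Nrp1-negative Treg, against 3.73, 9.05 and 2.7 FPKM in Tconv, 1.48 ± 0.42). The S100a8 call was lost without Nrp1-negative Treg replicate 1 or 3 or Tconv replicate 1 or 3 (adjusted p = 0.07 to 0.813) and without both libraries numbered 1 (adjusted p = 0.215). Erythroid and platelet markers ran from 1.48 to 58.9 FPKM in Nrp1-negative Treg and from 2.82 to 21.4 FPKM in Tconv, with 0 of 4 called and 1 at an unadjusted p under 0.05. The part of these cells in the results below was not tested.

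limma called 353 genes, 3.08% of those tested, of which 201 were higher (1.75%) and 152 lower (1.33%) in Nrp1-negative Treg. An unadjusted p under 0.05 was reached by 773 of the 11471 tested genes. In 322 of the 353 the groups did not overlap, which rests on the same libraries that gave the calls and is no separate support. A block on the replicate number gave 541 calls, 286 higher and 255 lower. Without both libraries numbered 1 there were 723 higher (6.3%) and 422 lower (3.68%) calls. In all, 269 genes (2.35%) passed with 6 libraries, after quantile normalization and without both libraries numbered 1, 165 of them higher and 104 lower. The share of calls that were higher was 56.9%, and it was 67.6% with median-of-ratios scaling, 44.8% with all 18 libraries in the fit and 72.3% without Nrp1-negative Treg replicate 1, so the balance of directions moved with the scaling and the libraries used.

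**Figure D1:**
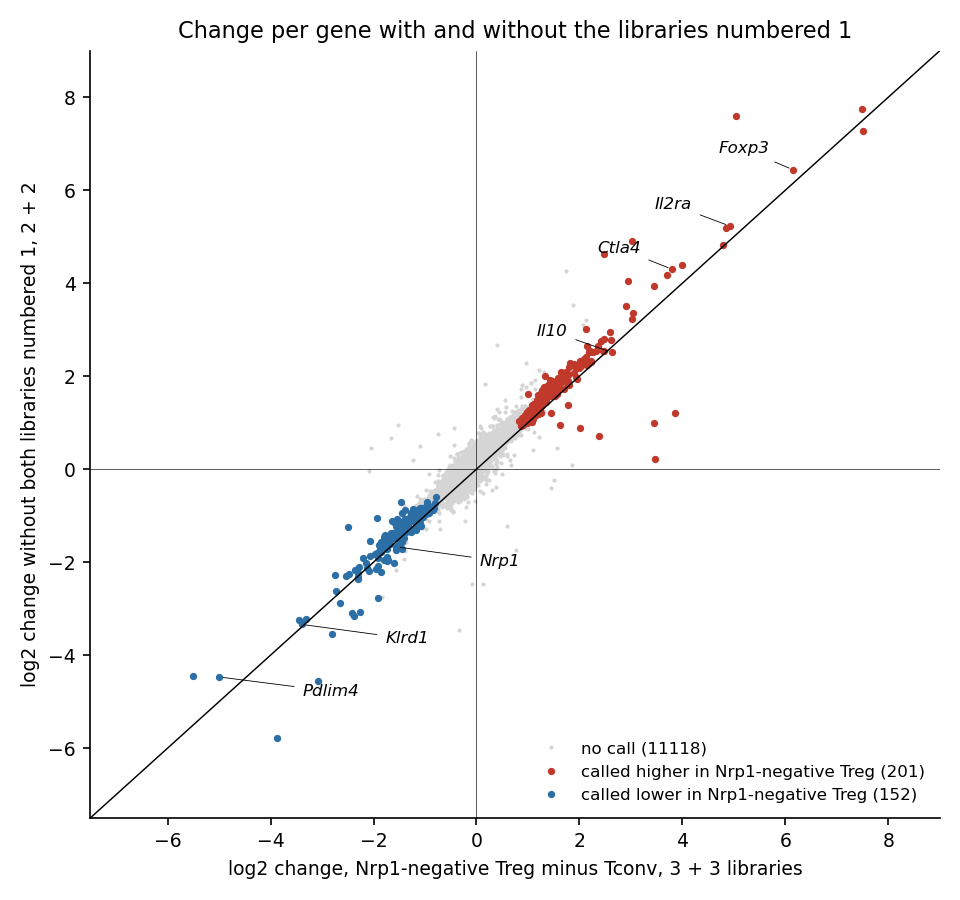
Log2 change of each of 11471 tested genes with all 6 libraries (horizontal axis) and without both libraries numbered 1 (vertical axis), red for genes called higher and blue for genes called lower in Nrp1-negative Treg with all 6 libraries, and grey for no call. The line marks equality, and Foxp3 lies at 6.15 and 6.44 and Pdlim4 at -5.00 and -4.47.

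Most genes of the Treg signature were higher. Of 22 tested members, 19 were called higher and 0 lower, and all 22 had a change above 0, with a median of 1.75 beside -0.22 over all tested genes. Without both libraries numbered 1 all 22 were higher. Without Nrp1-negative Treg replicate 2 alone, 12 of the 22 were called. The 3 without a call in 6 libraries were Icos (0.97 ± 0.38), Ecm1 (0.94 ± 0.38) and Nrn1 (0.27 ± 0.38), which were at 1.16, 1.23 and 0.61 without both libraries numbered 1. Itgb8 and Plagl1 were too low to be tested, and Foxp3 itself is not in the list.

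**Figure D2:**
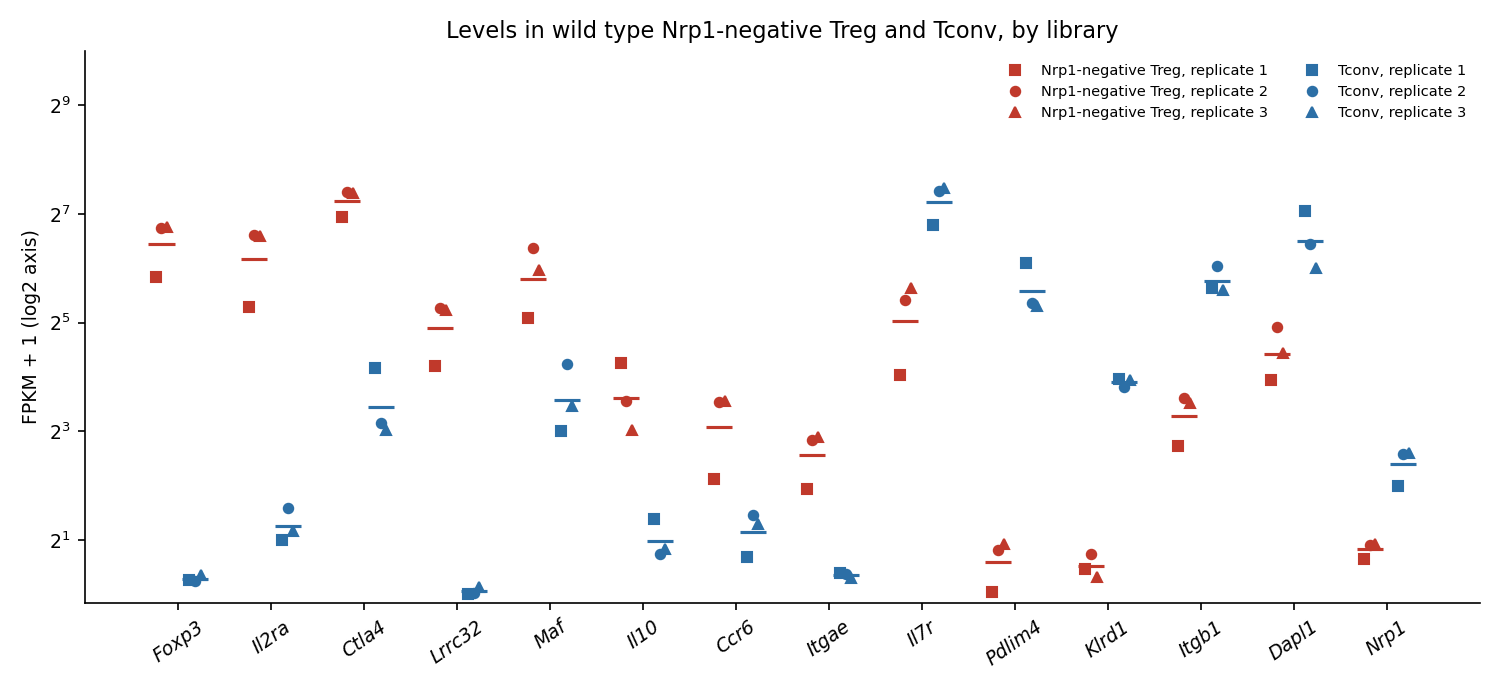
FPKM + 1 on a log2 axis for 14 genes in the 6 wild type libraries, with Nrp1-negative Treg in red at the left of each pair and Tconv in blue at the right, a marker shape for each replicate and a line at the mean of the log values (n = 3). The groups do not overlap for any gene shown, and Nrp1-negative Treg replicate 1 (square) is the lowest of its group for most of them but the highest for Il10.

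Il2ra, the alpha chain that gives the interleukin-2 receptor its high affinity (chromosome 2, 11642792 to 11693194), was at 38.3, 96.98 and 95.9 FPKM in Nrp1-negative Treg, against 1.004, 2.01 and 1.24 FPKM in Tconv. It rose by 4.92 ± 0.40 (limma adjusted p = 3.98e-18, and 0.000403 after quantile normalization). Nrp1-negative Treg replicate 1 was at less than the level of replicates 2 and 3, yet far above every Tconv library. Ctla4, which removes the costimulatory ligands CD80 and CD86 from antigen-presenting cells (chromosome 1, 60909025 to 60915832), was at 122, 168 and 165 FPKM in Nrp1-negative Treg, against 16.8, 7.94 and 7.13 FPKM in Tconv and rose by 3.80 ± 0.38. Tconv replicate 1 was the highest Tconv library for Ctla4, and without both libraries numbered 1 the change was 4.30. Lrrc32 encodes GARP, which holds latent TGF-beta on the Treg surface (chromosome 7, 98489305 to 98501831). It was at 17.3, 37.7 and 36.6 FPKM in Nrp1-negative Treg, against 0.00908, 0.0116 and 0.1 FPKM in Tconv, almost silent in Tconv, and rose by 4.84 ± 0.37.

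Other signature genes moved less. Ikzf2, which encodes Helios (chromosome 1, 69531207 to 69687351), was at 11.1, 29.6 and 30.7 FPKM in Nrp1-negative Treg, against 1.38, 4.9 and 3.81 FPKM in Tconv and rose by 2.48 ± 0.41. The related factor gene Ikzf4 (Eos) was at 5.16, 12.8 and 13.4 FPKM in Nrp1-negative Treg, against 0.484, 1.84 and 1.85 FPKM in Tconv (2.22 ± 0.36). For both genes Tconv replicate 1 was the lowest of all 6 libraries. Ikzf2 did not pass with all 18 libraries in the fit (adjusted p = 0.0686). Of the inhibitory receptors, Tigit was at 27.3, 36.2 and 35.6 FPKM in Nrp1-negative Treg, against 8.14, 11.3 and 9.09 FPKM in Tconv and rose by 1.70 ± 0.39. The Tigit groups were well apart, whereas Lag3, which binds MHC class II, was at 19.8, 25.1 and 16.3 FPKM in Nrp1-negative Treg, against 14.1, 9.56 and 7.49 FPKM in Tconv and did not pass (0.93 ± 0.40, adjusted p = 0.389), though its groups did not overlap. Icos, the inducible costimulator, was at 30.3, 63 and 56.3 FPKM in Nrp1-negative Treg, against 19.7, 28.7 and 23.8 FPKM in Tconv (adjusted p = 0.283, and 0.0062 without both libraries numbered 1).

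Of 16 tested members of the interleukin-2 and STAT5 pathway 5 were higher (Il2ra, Socs2, Cish, Il2rb and Lif) and 0 lower, with a median of 0.56, and 10 were higher without both libraries numbered 1. Lif, named after its values were seen, lost its call without Nrp1-negative Treg replicate 2 or 3 or Tconv replicate 2 or 3 (adjusted p = 0.193 to 0.241). Socs2, a suppressor of cytokine signalling induced by STAT5 (chromosome 10, 95383903 to 95417321), was at 12.8, 28.7 and 25.7 FPKM in Nrp1-negative Treg, against 0.984, 0.58 and 0.544 FPKM in Tconv and rose by 3.71 ± 0.38. Cish, another STAT5-induced inhibitor of the receptor, was at 34.04, 66.99 and 63.8 FPKM in Nrp1-negative Treg, against 9.56, 8.02 and 9.74 FPKM in Tconv and rose by 2.41 ± 0.39. Il2rb, the signalling beta chain, was at 101, 190.5 and 200.2 FPKM in Nrp1-negative Treg, against 37.3, 39.9 and 36.4 FPKM in Tconv and rose by 2.02 ± 0.38. For these genes Nrp1-negative Treg replicate 1 was the lowest of its group and still above all Tconv libraries.

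The shared gamma chain gene Il2rg was at 179, 318 and 295 FPKM in Nrp1-negative Treg, against 349.7, 291 and 292 FPKM in Tconv (-0.27 ± 0.39) and overlapped between the groups. Jak1 and Jak3, the receptor's kinases, had changes of -0.47 ± 0.39 and 0.32 ± 0.38, and Stat5a and Stat5b of 0.18 ± 0.39 and -0.13 ± 0.38, none with a call, though Jak3 passed without both libraries numbered 1 (adjusted p = 0.0146). Il2 itself was too low to be tested, at 0.243, 0 and 0 FPKM in Nrp1-negative Treg, against 1.14, 1.37 and 0.618 FPKM in Tconv. The survival gene Bcl2, a known STAT5 target, was at 22.8, 51.2 and 55.4 FPKM in Nrp1-negative Treg, against 20.1, 30.7 and 31.7 FPKM in Tconv (0.56 ± 0.39, adjusted p = 0.928), and its change was 0.75 (adjusted p = 0.00947) without both libraries numbered 1. The BCL2 family as a whole had 0 of 13 called by limma, with 1 at an unadjusted p under 0.05.

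Among 26 tested lineage transcription factors 6 were higher, among them Ikzf2, Maf, Ikzf4, Ahr and Prdm1, and 0 lower, with a median of 0.09. Of these Ahr and Prdm1, named after their values were seen, had changes of 1.23 ± 0.29 and 1.09 ± 0.32, and the Ahr call was lost without Tconv replicate 3 (adjusted p = 0.0676). The Prdm1 call was lost in each of the 6 fits that left out 1 library (adjusted p = 0.0691 to 0.301). Leaving out both libraries numbered 1, 9 of the 26 factors were higher and 4 lower. Maf, a factor that drives Il10 (chromosome 8, 115703253 to 115706894), was at 32.8, 82.1 and 61.2 FPKM in Nrp1-negative Treg, against 7.03, 17.97 and 9.98 FPKM in Tconv and rose by 2.23 ± 0.40. Tconv replicate 2 had the highest Maf of its group and stayed below all 3 Nrp1-negative Treg libraries.

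Factors of the other helper lineages had no call. Tbx21 (T-bet, Th1) was at 2.11, 3.12 and 2.63 FPKM in Nrp1-negative Treg, against 7.9, 4.7 and 5.04 FPKM in Tconv (-0.91 ± 0.35), Gata3 (Th2) at 23.7, 35.99 and 38.2 FPKM in Nrp1-negative Treg, against 28.1, 28.3 and 35.5 FPKM in Tconv (0.07 ± 0.38) and Bcl6 (follicular helper cells) at 5.54, 8.78 and 8.16 FPKM in Nrp1-negative Treg, against 8.35, 8.54 and 9.06 FPKM in Tconv (-0.21 ± 0.39). Tbx21 and Id2 passed as lower without both libraries numbered 1 (changes of -0.60 and -0.72). Rora, a nuclear receptor that also acts in type 2 innate lymphoid cells, was at 1.72, 3.45 and 3.57 FPKM in Nrp1-negative Treg, against 0.43, 3.52 and 2.86 FPKM in Tconv and overlapped between groups.

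Of 20 tested effector Treg genes 8 were higher and 0 lower, with a median of 1, and 5 were called without Tconv replicate 3. Il10, an anti-inflammatory cytokine (chromosome 1, 131019845 to 131024970), was at 18.2, 10.7 and 7.16 FPKM in Nrp1-negative Treg, against 1.62, 0.668 and 0.775 FPKM in Tconv and rose by 2.63 ± 0.36, with replicate 1 the highest in both groups. Fgl2, a secreted immunosuppressive protein, was at 2.52, 5.63 and 5.01 FPKM in Nrp1-negative Treg, against 0.1, 0.436 and 0.304 FPKM in Tconv (2.03 ± 0.28). Klrg1, a lectin receptor of highly differentiated cells, was at 6.11, 6.12 and 5.52 FPKM in Nrp1-negative Treg, against 1.43, 0.303 and 0.712 FPKM in Tconv (1.98 ± 0.32). Gzmb, the serine protease granzyme B, was at 8.13, 4.003 and 6.99 FPKM in Nrp1-negative Treg, against 4.8, 2.52 and 1.75 FPKM in Tconv and did not pass (0.90 ± 0.36). Batf and Cd44 had changes of -0.23 ± 0.38 and -0.11 ± 0.39, with overlap.

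Of 13 tested cytokines and chemokines 4 were higher (Il10, Ebi3, Csf1 and Lif) and 1 lower (Il21), with a median of -0.45. In this list 3 were called without Nrp1-negative Treg replicate 1, and 5 were higher and 4 lower without both libraries numbered 1. Ebi3, a subunit of interleukin-35 and interleukin-27, was at 5.07, 7.08 and 6.65 FPKM in Nrp1-negative Treg, against 2.45, 1.4 and 0.698 FPKM in Tconv (1.58 ± 0.34), and its call was lost without Nrp1-negative Treg replicate 1 or Tconv replicate 3 (adjusted p = 0.0699 to 0.128). Csf1, the macrophage growth factor, was at 4.25, 4.34 and 5.15 FPKM in Nrp1-negative Treg, against 0.959, 1.18 and 0.707 FPKM in Tconv (1.52 ± 0.31). Il21, the cytokine of follicular helper cells, was at 0.0859, 0.196 and 0.156 FPKM in Nrp1-negative Treg, against 1.31, 2.61 and 1.51 FPKM in Tconv (-1.27 ± 0.24), and its call was lost without Nrp1-negative Treg replicate 1 (adjusted p = 0.0727). Ifng, which encodes interferon-gamma, was at 9.33, 2.05 and 3.65 FPKM in Nrp1-negative Treg, against 28.3, 6.58 and 8.45 FPKM in Tconv (-1.28 ± 0.42, adjusted p = 0.085), with replicate 1 the highest in both groups. Il17a was listed at 0 in all 6 libraries, and Il17f and Il22 were below 1 FPKM in each.

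Chemokine and homing receptors had 5 of 14 called higher, among them Ccr2, Ccr6, Ccr4 and Gpr15, and 0 lower, with a median of 0.66, and 2 were called without Nrp1-negative Treg replicate 2 or Tconv replicate 3. Ccr6, the receptor for CCL20 shared with Th17 cells (chromosome 17, 8236041 to 8258519), was at 3.35, 10.7 and 10.8 FPKM in Nrp1-negative Treg, against 0.604, 1.75 and 1.46 FPKM in Tconv and rose by 1.93 ± 0.35. Ccr2, a receptor for inflammatory chemokines, was at 5.89, 15.3 and 12.9 FPKM in Nrp1-negative Treg, against 0.842, 1.95 and 1.27 FPKM in Tconv (2.33 ± 0.36). Ccr4, linked with homing to skin and lung, was at 7.1, 22.9 and 17.9 FPKM in Nrp1-negative Treg, against 2.99, 5.71 and 2.7 FPKM in Tconv (1.74 ± 0.40), and Gpr15, a receptor for homing to the colon, at 1.12, 5.11 and 3.22 FPKM in Nrp1-negative Treg, against 0.498, 0.89 and 0.331 FPKM in Tconv (1.29 ± 0.29). The groups of these receptors did not overlap. The call of Ccr4 was lost without Nrp1-negative Treg replicate 2 or Tconv replicate 3 (adjusted p = 0.0831 to 0.0899), and that of Gpr15 without Nrp1-negative Treg replicate 2 or Tconv replicate 3 (adjusted p = 0.0569 to 0.0804) and after quantile normalization (adjusted p = 0.0594).

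Receptors for lymphoid tissue had no call. Ccr7, which guides T cells into lymph nodes, was at 75.4, 150.3 and 122 FPKM in Nrp1-negative Treg, against 238, 202 and 196 FPKM in Tconv (-0.92 ± 0.38, adjusted p = 0.359, and 0.0393 after quantile normalization). Cxcr5, the follicle-homing receptor, was at 8.77, 24.04 and 17.4 FPKM in Nrp1-negative Treg, against 10.4, 10.9 and 6.66 FPKM in Tconv (0.70 ± 0.40), and Cxcr3, the Th1 receptor, at 18.2, 31.4 and 29.7 FPKM in Nrp1-negative Treg, against 42.5, 35.2 and 27.2 FPKM in Tconv (-0.41 ± 0.38), both with overlap.

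Integrins had 1 gene higher and 1 lower of 13 tested. Itgae, which encodes CD103, the alpha chain that binds E-cadherin on epithelium (chromosome 11, 73090505 to 73147449), was at 2.82, 6.18 and 6.46 FPKM in Nrp1-negative Treg, against 0.311, 0.296 and 0.227 FPKM in Tconv and rose by 2.21 ± 0.29. Its partner Itgb7 was at 201, 346 and 332 FPKM in Nrp1-negative Treg, against 399, 285 and 312 FPKM in Tconv (-0.21 ± 0.39), with overlap. Itgb1, the beta chain shared by receptors for collagen, laminin and fibronectin (chromosome 8, 128685654 to 128733579), was at 5.61, 11.2 and 10.5 FPKM in Nrp1-negative Treg, against 49.02, 64.7 and 47.3 FPKM in Tconv and fell (-2.47 ± 0.39). All 3 Tconv libraries were above the 3 Nrp1-negative Treg libraries for Itgb1 by several times. Itga4 and Itgal had changes of -0.33 ± 0.40 and -0.05 ± 0.38.

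Of 17 tested TNF receptor and ligand genes 4 were higher (Tnfrsf4, Tnfrsf9, Tnfrsf18 and Lta) and 1 lower (Cd40lg), with a median of 0.10. The list had 7 higher and 3 lower without both libraries numbered 1. In all, 2 were called without Nrp1-negative Treg replicate 2 or Tconv replicate 2, and 3 without replicate 3 of either group. Lta, named after its values were seen, was 1 of those lost without Nrp1-negative Treg replicate 2 or 3 or Tconv replicate 2 or 3 (adjusted p = 0.357 to 0.476). Tnfrsf4 (OX40), a costimulatory receptor of Treg and activated T cells, was at 54.6, 77.3 and 63.8 FPKM in Nrp1-negative Treg, against 15.3, 11.9 and 11.2 FPKM in Tconv (2.26 ± 0.38). Tnfrsf9 (4-1BB) was at 16.2, 29.4 and 22.5 FPKM in Nrp1-negative Treg, against 6.29, 6.05 and 6.12 FPKM in Tconv (1.69 ± 0.40) and Tnfrsf18 (GITR) at 91.8, 131 and 112 FPKM in Nrp1-negative Treg, against 57.1, 34.3 and 35.3 FPKM in Tconv (1.41 ± 0.38). Cd40lg, the ligand by which helper T cells activate B cells, was at 12.9, 25.5 and 24.9 FPKM in Nrp1-negative Treg, against 75.7, 67.2 and 71.2 FPKM in Tconv and fell (-1.77 ± 0.38). No group overlapped for these 4. The call of Tnfrsf9 was lost without Nrp1-negative Treg replicate 2 or Tconv replicate 2 (adjusted p = 0.0559 to 0.0823), and that of Tnfrsf18 without Nrp1-negative Treg replicate 1, 2 or 3 or Tconv replicate 2 or 3 (adjusted p = 0.0597 to 0.245). Without both libraries numbered 1 they had changes of 1.92 and 1.77, both past the test.

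Coinhibitory receptors had 3 of 15 called higher (Ctla4, Lilrb4 and Tigit) and 0 lower, with a median of 0.33, and 7 higher and 1 lower without both libraries numbered 1. Lilrb4, an inhibitory receptor gene that shares sequence with its neighbour Gp49a, was at 9.2, 11.8 and 12.8 FPKM in Nrp1-negative Treg, against 1.1, 0.996 and 0.906 FPKM in Tconv (2.61 ± 0.35), and how reads were split between this pair is uncertain. Pdcd1 (PD-1) was at 7.09, 15.8 and 11.9 FPKM in Nrp1-negative Treg, against 14.5, 11.9 and 9.98 FPKM in Tconv (-0.11 ± 0.40) and Btla at 16.3, 35.3 and 32.6 FPKM in Nrp1-negative Treg, against 27.1, 43.2 and 38.6 FPKM in Tconv (-0.41 ± 0.39), both with overlap.

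The adenosine list had 2 of 10 higher and 1 lower. Nt5e (CD73), which makes adenosine from AMP, was at 22.2, 48.2 and 50.01 FPKM in Nrp1-negative Treg, against 9.31, 13.2 and 12.5 FPKM in Tconv (1.62 ± 0.39) and Entpd1 (CD39), which degrades ATP and ADP, at 2.31, 4.75 and 4.99 FPKM in Nrp1-negative Treg, against 1.13, 1.004 and 0.997 FPKM in Tconv (1.25 ± 0.31). Both enzymes were thus higher, with no overlap between the groups. The call of Nt5e was lost without Nrp1-negative Treg replicate 2 or 3 (adjusted p = 0.0876 to 0.113), and that of Entpd1 without Nrp1-negative Treg replicate 2 or 3 or Tconv replicate 2 or 3 (adjusted p = 0.0608 to 0.0912). Nt5e also did not pass with all 18 libraries in the fit (adjusted p = 0.0584), and Entpd1 with no variance trend (adjusted p = 0.0651). The adenosine receptor gene Adora2a was at 12.8, 15.6 and 13.8 FPKM in Nrp1-negative Treg, against 15.5, 10.8 and 10.6 FPKM in Tconv (0.19 ± 0.39). Pde3b, which degrades cyclic AMP, was at 3.8, 8.06 and 7.42 FPKM in Nrp1-negative Treg, against 16.9, 40.8 and 36.7 FPKM in Tconv and fell (-2.09 ± 0.40), with its call lost without Nrp1-negative Treg replicate 1 (adjusted p = 0.121).

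In the TGF-beta list Lrrc32 rose and Tgfbr3 fell, of 16 tested. Tgfbr3, the betaglycan coreceptor, was at 2.17, 3.88 and 4.41 FPKM in Nrp1-negative Treg, against 7.86, 17.7 and 20.1 FPKM in Tconv (-1.79 ± 0.40), with its call lost without Nrp1-negative Treg replicate 1 or Tconv replicate 3 (adjusted p = 0.0676 to 0.184) and with median-of-ratios scaling (adjusted p = 0.0561). Tgfb1 was at 57.1, 76.5 and 66.8 FPKM in Nrp1-negative Treg, against 81.8, 53.4 and 50.9 FPKM in Tconv (0.13 ± 0.38) and Tgfbr2 at 23.4, 43.2 and 43.1 FPKM in Nrp1-negative Treg, against 59.7, 87.3 and 84.5 FPKM in Tconv (-1.09 ± 0.38, adjusted p = 0.138, and 0.00361 without both libraries numbered 1). Smad2, Smad3 and Smad4 had changes of -0.36 ± 0.38, 0.26 ± 0.40 and -0.44 ± 0.39.

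Receptors for polarizing cytokines had 2 of 15 higher and 1 lower. Il12rb1, shared by the receptors for interleukin-12 and interleukin-23, was at 11.3, 20.9 and 19.99 FPKM in Nrp1-negative Treg, against 6.07, 4.45 and 3.73 FPKM in Tconv (1.65 ± 0.40), with its call lost without Nrp1-negative Treg replicate 2 or 3 or Tconv replicate 2 or 3 (adjusted p = 0.0615 to 0.111). Il1r2, a decoy receptor for interleukin-1, was at 1.34, 1.93 and 2.05 FPKM in Nrp1-negative Treg, against 0.366, 0.118 and 0.267 FPKM in Tconv (1.14 ± 0.24), and did not pass with no variance trend (adjusted p = 0.0951). Il9r was at 0.543, 1.58 and 1.18 FPKM in Nrp1-negative Treg, against 2.91, 3.94 and 3.28 FPKM in Tconv (-1.08 ± 0.30), with its call lost without Nrp1-negative Treg replicate 1 or 3 or Tconv replicate 2 or 3 (adjusted p = 0.0929 to 0.193). In the semaphorin list Plxnd1 was higher and Sema4a and Sema4f lower, of 9 tested. Sema4a, a ligand of Nrp1, was at 13.4, 23.6 and 24.8 FPKM in Nrp1-negative Treg, against 66.3, 53.1 and 63.9 FPKM in Tconv (-1.56 ± 0.38), with its call lost without Tconv replicate 3 (adjusted p = 0.0767). Sema4f had a change of -1.36 ± 0.39 and lost its call without Nrp1-negative Treg replicate 2 or 3 or Tconv replicate 2 or 3 (adjusted p = 0.0912 to 0.208). Plxnd1 had a change of 1.18 ± 0.34 and lost its call without Nrp1-negative Treg replicate 2 or 3 or Tconv replicate 1, 2 or 3 (adjusted p = 0.0724 to 0.366).

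Of the lists, that of naive and resting T cell genes held the most lower calls. Of 21 tested 8 were called lower and 0 higher, 20 had a change below 0, and the median was -0.92, or -0.62 without both libraries numbered 1. Without Nrp1-negative Treg replicate 1, Tconv replicate 2 or Tconv replicate 3, 5 were called. Pdlim4, a PDZ and LIM domain protein (chromosome 11, 54054928 to 54069032), showed the largest fall of any gene under the naming rule (-5.00 ± 0.40). It was at 0.0355, 0.753 and 0.892 FPKM in Nrp1-negative Treg, against 67.4, 40.3 and 38.5 FPKM in Tconv. Its limma adjusted p was 5.61e-19, and 0.000478 after quantile normalization. Il7r, the receptor for the survival cytokine interleukin-7 (chromosome 15, 9506159 to 9529941), was at 15.3, 41.5 and 48.6 FPKM in Nrp1-negative Treg, against 109.8, 169.6 and 176 FPKM in Tconv (-2.20 ± 0.39). Dapl1, a marker of naive T cells (chromosome 2, 59484653 to 59505020), was at 14.3, 29.2 and 20.6 FPKM in Nrp1-negative Treg, against 132, 86.3 and 63.2 FPKM in Tconv (-2.07 ± 0.39), and its call was lost without Nrp1-negative Treg replicate 1 (adjusted p = 0.0788) but held without both libraries numbered 1 (-1.55, adjusted p = 0.0128). The groups did not overlap for any of these 3.

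Tcf7, Lef1 and Igfbp4 were also called and were named after their values were seen. Tcf7, which encodes TCF-1, a factor of naive and memory T cells, was at 167, 314 and 292 FPKM in Nrp1-negative Treg, against 700.5, 677 and 702 FPKM in Tconv (-1.48 ± 0.39). Its partner Lef1 was at 31.8, 65.9 and 58.6 FPKM in Nrp1-negative Treg, against 99.1, 150 and 153 FPKM in Tconv (-1.38 ± 0.38), and Igfbp4 was at 65.9, 148 and 136 FPKM in Nrp1-negative Treg, against 388, 314 and 309.8 FPKM in Tconv (-1.60 ± 0.39). In each, all Tconv libraries were above all Nrp1-negative Treg libraries. The call of Tcf7 was lost without Nrp1-negative Treg replicate 3 or Tconv replicate 2 or 3 (adjusted p = 0.0749 to 0.104) and that of Lef1 without Nrp1-negative Treg replicate 1 or 3 or Tconv replicate 2 or 3 (adjusted p = 0.0693 to 0.238), while that of Igfbp4 held in all 6 such fits. Not every resting gene was called lower: Foxp1 was at 21.5, 46.2 and 44.9 FPKM in Nrp1-negative Treg, against 26.5, 48.4 and 50.5 FPKM in Tconv (-0.17 ± 0.39), Id3 at 43.4, 74.9 and 59.6 FPKM in Nrp1-negative Treg, against 72.3, 49.1 and 44.3 FPKM in Tconv (0.10 ± 0.38) and Bach2 at 7.57, 16.6 and 17.3 FPKM in Nrp1-negative Treg, against 10, 22.2 and 23.4 FPKM in Tconv (-0.39 ± 0.40), all with overlap and no call.

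Cytotoxic and killer receptor genes had 5 of 14 lower (Klrd1, Nkg7, Gzmk, Prf1 and Gzma) and 1 higher (Klrg1), with a median of -0.91, or -0.62 without both libraries numbered 1. Klrd1, which encodes CD94, a subunit of inhibitory and activating killer receptors (chromosome 6, 129588092 to 129598775), was at 0.381, 0.677 and 0.256 FPKM in Nrp1-negative Treg, against 14.5, 13.1 and 14.4 FPKM in Tconv and fell (-3.39 ± 0.34). Its level was even across the Tconv libraries, beside NK cell marker sums of no more than 2.16 FPKM there. Nkg7, a granule membrane protein, was at 12.96, 7.34 and 7.37 FPKM in Nrp1-negative Treg, against 54.8, 29.9 and 25.6 FPKM in Tconv (-1.85 ± 0.40), and Gzmk, granzyme K, at 1.004, 0.251 and 1.4 FPKM in Nrp1-negative Treg, against 9.75, 3.84 and 3.56 FPKM in Tconv (-1.77 ± 0.32). For these 2 genes Tconv replicate 1 was the highest library, and after quantile normalization they did not pass (adjusted p = 0.178 for Nkg7 and 0.154 for Gzmk), nor with median-of-ratios scaling. Gzmk also lost its call without Nrp1-negative Treg replicate 1 (adjusted p = 0.195). Prf1, perforin, named after its values were seen, was at 1.55, 3.54 and 2.96 FPKM in Nrp1-negative Treg, against 10.5, 10.03 and 10.9 FPKM in Tconv (-1.68 ± 0.38), and Gzma, granzyme A, named likewise, had a change of -1.42 ± 0.27 and lost its call without Nrp1-negative Treg replicate 1 (adjusted p = 0.0541). Ccl5 was at 101, 44.1 and 76.2 FPKM in Nrp1-negative Treg, against 381, 132 and 82.7 FPKM in Tconv and did not pass (-1.19 ± 0.40, adjusted p = 0.11).

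The follicular helper list had 2 of 11 lower and 0 higher, Il21 and Pou2af1, a coactivator of lymphocyte octamer factors, at 1.34, 2.11 and 1.96 FPKM in Nrp1-negative Treg, against 5.47, 7.9 and 6.31 FPKM in Tconv (-1.43 ± 0.34). The Pou2af1 call was lost without Tconv replicate 2 (adjusted p = 0.0931).

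**Figure D3:**
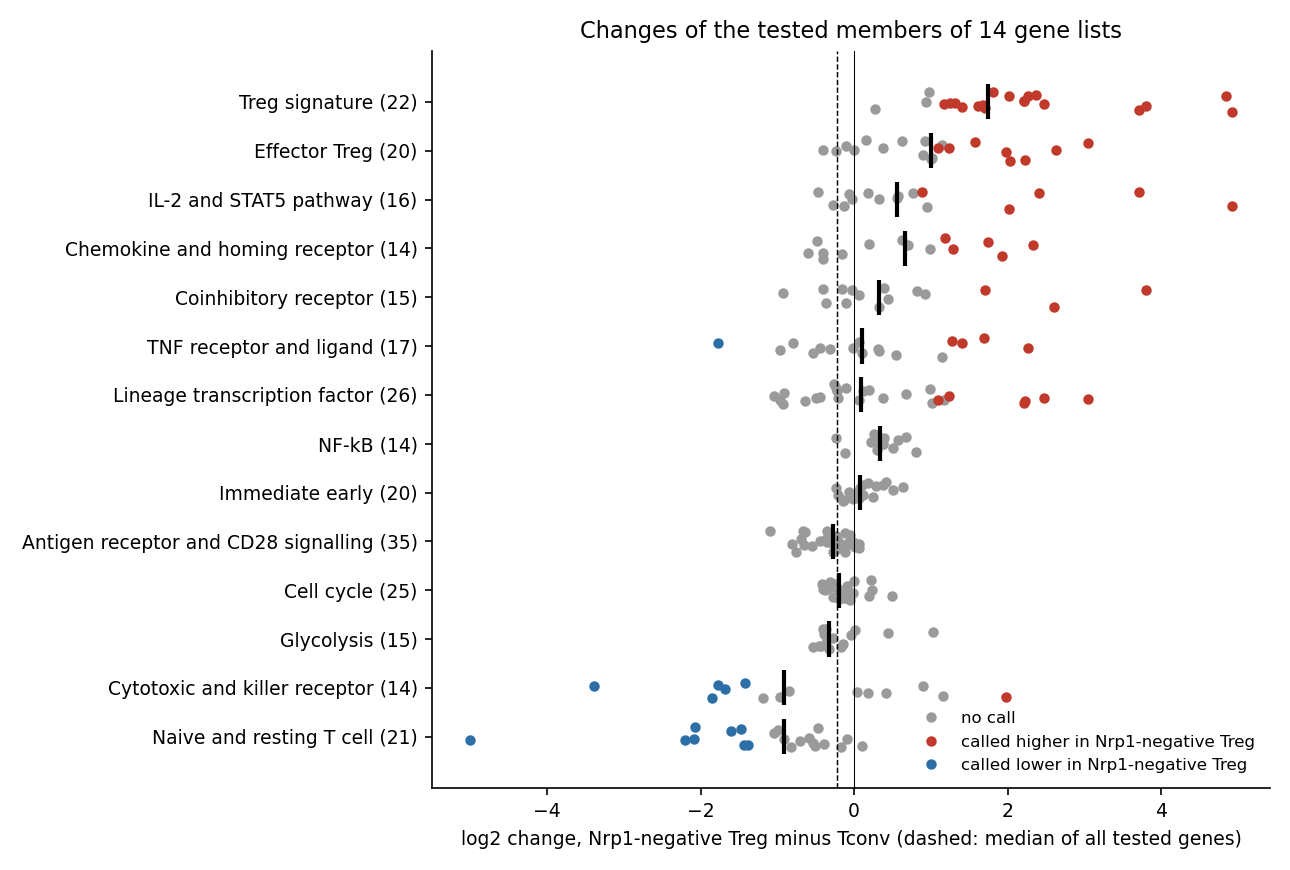
Log2 change of each tested member of 14 gene lists (number tested in brackets), Nrp1-negative Treg minus Tconv, red for called higher, blue for called lower and grey for no call. The black bar is the list's median, from 1.75 for the Treg signature to -0.92 for naive and resting genes, and the dashed line is the median of all tested genes, -0.22.

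Several programs gave no call. The antigen receptor and CD28 signalling list had 0 of 35 called (median -0.28), immediate early genes 0 of 20 (0.08), cell cycle genes 0 of 25 (-0.20), glycolysis 0 of 15 (-0.33), heat shock and handling genes 0 of 10 (-0.24), and DNA methylation and Polycomb genes 0 of 11 (-0.16). At an unadjusted p under 0.05 the limma counts of these lists were 3, 0, 0, 1, 0 and 1 in that order. Over all 11471 tested genes that count was 773. Without both libraries numbered 1, 5 antigen receptor genes were lower and 3 immediate early genes higher. The proliferation marker Mki67 was at 1.41, 1.86 and 1.8 FPKM in Nrp1-negative Treg, against 1.76, 2.38 and 1.47 FPKM in Tconv (-0.09 ± 0.29), and Cd28 at 31.5, 59.7 and 53.2 FPKM in Nrp1-negative Treg, against 33.6, 82.8 and 67.3 FPKM in Tconv (-0.30 ± 0.39), both with overlap.

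NF-kB genes had 0 of 14 called by limma and 1 at an unadjusted p under 0.05, with a median of 0.34, yet 8 were higher without both libraries numbered 1 (median 0.52). Traf1, a target and adaptor of TNF receptors, was at 52.8, 96.05 and 93.2 FPKM in Nrp1-negative Treg, against 57.9, 37.8 and 39.4 FPKM in Tconv (0.80 ± 0.38), and at 1.27 (adjusted p = 0.00216) without those libraries. Replicates 2 and 3 of Nrp1-negative Treg were above all Tconv libraries for Traf1, and replicate 1 was not. The S100, galectin and annexin list had 1 of 18 called, Anxa4 (1.77, 2.07 and 1.71 FPKM in Nrp1-negative Treg, against 0.65, 0.827 and 0.276 FPKM in Tconv), with the call lost without Nrp1-negative Treg replicate 1, 2 or 3 or Tconv replicate 2 or 3 (adjusted p = 0.11 to 0.741) and without both libraries numbered 1 (adjusted p = 0.0567). Type I interferon response genes had 1 of 17 called, the guanylate-binding GTPase gene Gbp3, at 12.4, 28.98 and 28.9 FPKM in Nrp1-negative Treg, against 4.98, 4.89 and 5.55 FPKM in Tconv (1.90 ± 0.40).

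Outside the lists, the largest rises were of genes with varied roles. Coro2a, an actin-binding coronin (chromosome 4, 46536937 to 46601929), was at 21.8, 50.4 and 56.02 FPKM in Nrp1-negative Treg, against 1.48, 1.88 and 1.31 FPKM in Tconv (4 ± 0.40). Gbp1, an interferon-induced GTPase of a family with closely similar members, was at 5.12, 16.2 and 14.3 FPKM in Nrp1-negative Treg, against 0.0975, 0.0356 and 0.0901 FPKM in Tconv (3.45 ± 0.33). Serpina3g, a protease inhibitor with near-identical neighbours in its cluster, was at 30.6, 43.9 and 48.5 FPKM in Nrp1-negative Treg, against 4.08, 4.62 and 3.57 FPKM in Tconv (3.02 ± 0.39). How reads were shared within these 2 families is uncertain. Rgs1, which dampens chemokine receptor signals, was at 77.9, 88.1 and 94.2 FPKM in Nrp1-negative Treg, against 23.2, 7.86 and 6.43 FPKM in Tconv (2.90 ± 0.39), with its call lost without Nrp1-negative Treg replicate 1 (adjusted p = 0.0621). Rnase4, a secreted ribonuclease, was at 5.11, 11.2 and 10.2 FPKM in Nrp1-negative Treg, against 0.665, 0.428 and 0.626 FPKM in Tconv (2.59 ± 0.33), and Rln3, the peptide hormone relaxin 3, at 11.3, 20.4 and 16.6 FPKM in Nrp1-negative Treg, against 2.45, 1.41 and 2.27 FPKM in Tconv (2.47 ± 0.38).

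The largest falls outside the lists began with the gamma-glutamyl transferase genes Ggt5, at 0.797, 1.01 and 1.08 FPKM in Nrp1-negative Treg, against 18.7, 16.3 and 20.4 FPKM in Tconv (-3.31 ± 0.37), and Ggt1, at 0.714, 0.734 and 1.04 FPKM in Nrp1-negative Treg, against 8.37, 5.71 and 5.91 FPKM in Tconv (-2.06 ± 0.32), which break down glutathione and leukotriene C4. Nme4, a mitochondrial nucleoside diphosphate kinase, was at 0.158, 0.241 and 0.229 FPKM in Nrp1-negative Treg, against 7.74, 6.82 and 6.44 FPKM in Tconv (-2.72 ± 0.30). Atp8b4, a phospholipid-transporting ATPase, was at 0.138, 0.323 and 0.397 FPKM in Nrp1-negative Treg, against 4.31, 7.89 and 10.1 FPKM in Tconv (-2.65 ± 0.31). These 4 genes were around 1 FPKM or less in Nrp1-negative Treg. Vipr1, a receptor for vasoactive intestinal peptide, was at 5.16, 10.03 and 11.4 FPKM in Nrp1-negative Treg, against 49.4, 50.5 and 62.9 FPKM in Tconv (-2.54 ± 0.39). App, the amyloid precursor protein gene, was at 0.172, 0.362 and 0.586 FPKM in Nrp1-negative Treg, against 4.73, 5.2 and 7.53 FPKM in Tconv (-2.30 ± 0.30), and Lypd6b at 1.2, 1.43 and 1.34 FPKM in Nrp1-negative Treg, against 11.2, 10.6 and 9.9 FPKM in Tconv (-2.31 ± 0.35). Hs3st3b1, a heparan sulfate sulfotransferase, was at 1.43, 2.47 and 2.71 FPKM in Nrp1-negative Treg, against 10.2, 17.4 and 17.5 FPKM in Tconv (-2.31 ± 0.38), and the endosomal adaptor gene Appl2 at 1.52, 3.88 and 3.79 FPKM in Nrp1-negative Treg, against 12.3, 16.03 and 21.1 FPKM in Tconv (-2.14 ± 0.39). No group overlapped for these 9 genes.

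Promoters of the called genes were read for 3 motifs on both strands, in the 250 bases before each RefSeq start listed on GRCm38.p6. A gene can have several starts, and 28 of the 63 windows of named genes ended at the gene's boundary. The motifs were TGTTTAC, bound by forkhead factors such as Foxp3, TGANTCA, bound by AP-1, and TTCNNNGAA, bound by STAT factors. Windows were found for 7567 of the 11471 tested genes, 111 of the 201 called higher and 91 of the 152 called lower. The forkhead letters were in 4.11% of 146 windows of higher genes, 1.52% of 132 windows of lower genes and 2.07% of all 9571. The AP-1 letters were in 10.3% of windows of higher genes, 2.27% of those of lower genes and 3.96% of all. The STAT letters were in 10.3% of windows of higher genes, 5.3% of those of lower genes and 6.17% of all. These motifs do not overlap in the windows printed here. The shares rest on 6 forkhead, 15 AP-1 and 15 STAT windows of higher genes and 2 forkhead, 3 AP-1 and 7 STAT windows of lower genes. No test was run, and a match is a description of letters, not a site.

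The windows below are shown as those of Foxp3, of 2 named higher genes that hold both AP-1 and STAT letters and of the 1 named lower gene that holds forkhead letters, with the matches in capitals. Foxp3 is on chrX:7580233-7580482, plus strand, before 1 of its 2 RefSeq starts, and its capitals are a STAT match. This window lies within the gene as placed above, and the window of the other start holds 0 matches. Fgl2 is on chr5:21372423-21372672, plus strand, and its capitals are a STAT match and then an AP-1 match. Tnfrsf9 is on chr4:150927749-150927998, plus strand, also before 1 of 2 starts, and holds a STAT match and then an AP-1 match. Its window too lies within the gene, and that of the other start holds 0 matches. Dapl1 is on chr2:59484403-59484652, plus strand, and its capitals are a forkhead match on the opposite strand.
Foxp3: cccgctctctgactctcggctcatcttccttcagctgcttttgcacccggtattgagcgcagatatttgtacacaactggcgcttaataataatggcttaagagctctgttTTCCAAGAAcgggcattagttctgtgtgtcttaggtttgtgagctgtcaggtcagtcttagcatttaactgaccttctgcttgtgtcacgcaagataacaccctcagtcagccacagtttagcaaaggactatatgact
Fgl2: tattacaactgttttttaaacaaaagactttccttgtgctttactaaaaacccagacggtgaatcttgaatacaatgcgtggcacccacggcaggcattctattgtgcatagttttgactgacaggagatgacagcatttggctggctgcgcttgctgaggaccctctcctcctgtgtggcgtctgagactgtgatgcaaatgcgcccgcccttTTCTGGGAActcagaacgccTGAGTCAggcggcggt
Tnfrsf9: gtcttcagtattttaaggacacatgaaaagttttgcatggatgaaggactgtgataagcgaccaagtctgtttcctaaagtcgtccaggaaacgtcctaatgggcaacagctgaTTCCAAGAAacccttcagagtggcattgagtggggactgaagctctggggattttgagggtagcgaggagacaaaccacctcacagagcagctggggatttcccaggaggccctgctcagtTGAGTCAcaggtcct
Dapl1: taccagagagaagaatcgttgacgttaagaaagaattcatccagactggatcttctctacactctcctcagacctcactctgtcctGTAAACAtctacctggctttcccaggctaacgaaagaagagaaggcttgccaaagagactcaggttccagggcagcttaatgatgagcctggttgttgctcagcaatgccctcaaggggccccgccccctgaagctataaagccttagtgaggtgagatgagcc

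The genes that set Nrp1-negative Treg apart from Tconv were set beside wild type Nrp1+ Treg. This comparison uses the same Nrp1-negative Treg libraries, so its values are given side by side and not as separate support. limma called 301 of 11658 genes between the Treg subsets (2.58%), 968 with a block on the replicate number, and 176 without Nrp1-negative Treg replicate 2. Gbp1 was highest in Nrp1-negative Treg, at 5.12, 16.2 and 14.3 FPKM in Nrp1-negative Treg, 2.27, 2.56 and 1.25 FPKM in Nrp1+ Treg and 0.0975, 0.0356 and 0.0901 FPKM in Tconv, and its change against Nrp1+ Treg was 1.98 ± 0.38, though this call was lost without Nrp1-negative Treg replicate 2 (adjusted p = 0.0543). Maf and Foxp3 had changes against Nrp1+ Treg of 0.15 ± 0.32 and -0.41 ± 0.30, with no call.

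Other genes placed Nrp1-negative Treg between the populations. Ikzf2 was at 11.1, 29.6 and 30.7 FPKM in Nrp1-negative Treg, 79.8, 126 and 142 FPKM in Nrp1+ Treg and 1.38, 4.9 and 3.81 FPKM in Tconv, with -2.32 ± 0.37 against Nrp1+ Treg. Klrg1 was at 6.11, 6.12 and 5.52 FPKM in Nrp1-negative Treg, 32.3, 28.2 and 33.1 FPKM in Nrp1+ Treg and 1.43, 0.303 and 0.712 FPKM in Tconv (-2.22 ± 0.30), and Tigit at 27.3, 36.2 and 35.6 FPKM in Nrp1-negative Treg, 76.6, 81.1 and 100 FPKM in Nrp1+ Treg and 8.14, 11.3 and 9.09 FPKM in Tconv (-1.35 ± 0.27). Dapl1 stood between them in the opposite order, at 14.3, 29.2 and 20.6 FPKM in Nrp1-negative Treg, 6.55, 4.66 and 1.5 FPKM in Nrp1+ Treg and 132, 86.3 and 63.2 FPKM in Tconv (2.18 ± 0.41). Pde3b was at 3.8, 8.06 and 7.42 FPKM in Nrp1-negative Treg, 0.866, 0.896 and 0.352 FPKM in Nrp1+ Treg and 16.9, 40.8 and 36.7 FPKM in Tconv (2.09 ± 0.29) and Vipr1 at 5.16, 10.03 and 11.4 FPKM in Nrp1-negative Treg, 2.18, 2.83 and 2.25 FPKM in Nrp1+ Treg and 49.4, 50.5 and 62.9 FPKM in Tconv (1.47 ± 0.32). Itgb1 was lowest in Nrp1-negative Treg, at 5.61, 11.2 and 10.5 FPKM in Nrp1-negative Treg, 108, 113 and 118 FPKM in Nrp1+ Treg and 49.02, 64.7 and 47.3 FPKM in Tconv (-3.55 ± 0.31), and Il9r likewise, at 0.543, 1.58 and 1.18 FPKM in Nrp1-negative Treg, 5.87, 8.14 and 7.5 FPKM in Nrp1+ Treg and 2.91, 3.94 and 3.28 FPKM in Tconv (-1.98 ± 0.28). For each of these 8 genes Nrp1-negative Treg differed past the test from both other populations. Against Nrp1+ Treg the call of Tigit was lost without Nrp1+ Treg replicate 3 (adjusted p = 0.0816), that of Dapl1 without Nrp1-negative Treg replicate 2 (adjusted p = 0.0512) and that of Vipr1 without Nrp1-negative Treg replicate 2 (adjusted p = 0.0954). Il10 was at 6.13, 3.1 and 4.39 FPKM in Nrp1+ Treg and did not pass between the subsets (1.18 ± 0.36, adjusted p = 0.125).

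**Figure D4:**
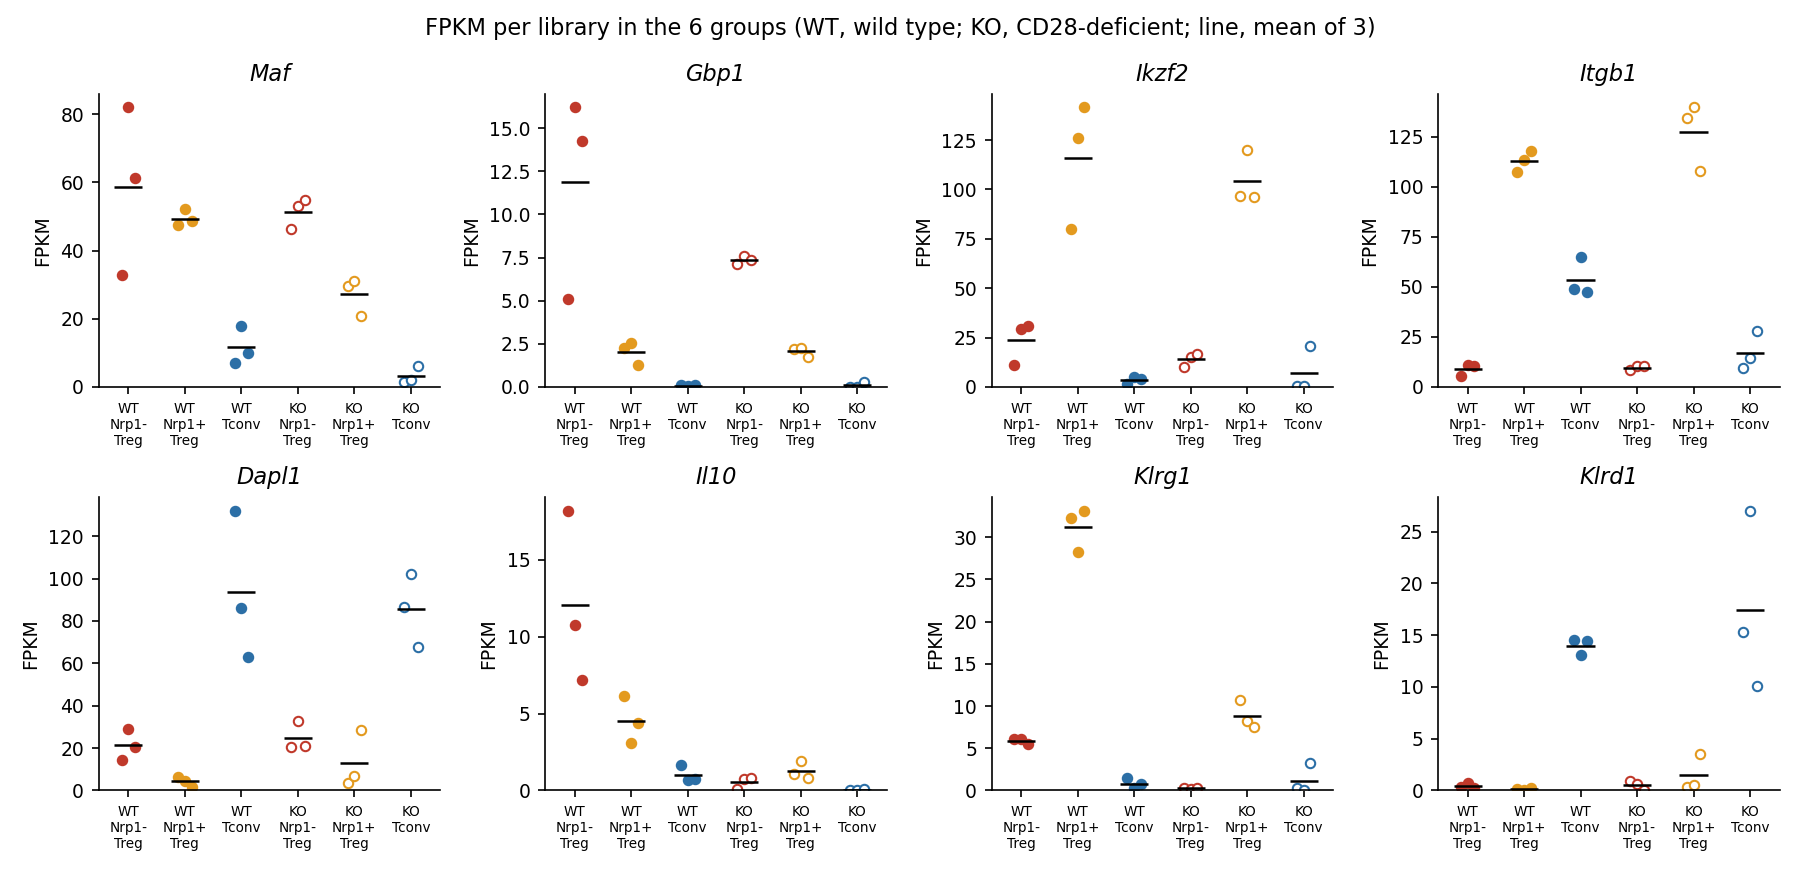
FPKM of 8 genes in each library of 6 groups, with wild type (WT, filled) left of CD28-deficient (KO, open) and, within each, Nrp1-negative Treg (Nrp1-), Nrp1+ Treg and Tconv from left to right, with a line at the mean of 3. Wild type Nrp1-negative Treg have the highest mean of the wild type groups for Maf, Gbp1 and Il10, with overlap between the Treg subsets for Maf, and the lowest for Itgb1, and CD28-deficient Tconv replicate 3 is the highest of its group for Ikzf2, Itgb1 and Klrg1.

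The same populations from CD28-/-Foxp3EGFP mice gave a comparison that shares no library with the wild type one. The library labelled CD28-deficient Tconv replicate 3 went against its label: Foxp3 was at 0.0669, 0.205 and 21.1 FPKM in the 3 CD28-deficient Tconv libraries, Il2ra at 1.05, 1.21 and 23.99 and Nrp1 at 0.627, 0.841 and 12.8. CD28-deficient Nrp1+ Treg replicate 3 also differed from its group. In that group Pdlim4 was at 0.126, 0.0332 and 8.14 FPKM and Dapl1 at 3.73, 6.74 and 28.4 FPKM. The fits of all 18 libraries hold both of these libraries. Cd28 itself was at 31.5, 59.7 and 53.2 FPKM in wild type and 54.05, 87.3 and 86.8 FPKM in CD28-deficient Nrp1-negative Treg, and at 33.6, 82.8 and 67.3 FPKM in wild type and 65.7, 117 and 84.03 FPKM in CD28-deficient Tconv, so it was not lower in libraries labelled CD28-deficient. Whether reads come from the deleted part was not tested. Of the 201 genes called higher in wild type, 186 had a change above 0 in the CD28-deficient libraries and 146 had groups that did not overlap, where 27.0% of all tested genes were higher without overlap. Of the 152 called lower, 140 had a change below 0 there and 119 did not overlap, where 3.59% of all tested genes were lower without overlap. Of all 11471 tested genes, 8349 had a change above 0 there and 3120 one below 0. The median change there was 0.14 over all tested genes, 1.34 over those called higher and -1.04 over those called lower in wild type. Without CD28-deficient Tconv replicate 3, 189 of the 201 had a change above 0 and 136 of the 152 one below 0. The medians were 1.66 and -1.12 beside 0.15 over all tested genes, of which 8378 were above 0 and 3090 below 0.

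Named genes kept their direction to different degrees in the CD28-deficient libraries. Klrd1 had a change of -3.57 beside -3.39 in wild type, and Pdlim4 of -4.46 beside -5.00. Il10 was at 0.103, 0.713 and 0.821 FPKM in CD28-deficient Nrp1-negative Treg, against 0, 0 and 0.0633 FPKM in CD28-deficient Tconv (0.56, beside 2.63 in wild type). Klrg1 was at 0.295, 0.163 and 0.328 FPKM in CD28-deficient Nrp1-negative Treg, against 0.241, 0 and 3.22 FPKM in CD28-deficient Tconv, a change of -0.46, or 0.18 without CD28-deficient Tconv replicate 3. Itgb1 was at 8.26, 10.6 and 10.3 FPKM in CD28-deficient Nrp1-negative Treg, against 9.44, 14.3 and 27.9 FPKM in CD28-deficient Tconv, a change of -0.64, or -0.25 without that library. The tests of the difference between genotypes (wild type minus CD28-deficient) gave 2.06 ± 0.42 for Il10, 2.44 ± 0.58 for Klrg1 and -1.83 ± 0.48 for Itgb1, with adjusted p = 0.291, 0.546 and 0.677, so none passed. Without the 3 libraries that stood apart (both wild type libraries numbered 1 and CD28-deficient Tconv replicate 3) they were 1.91, 2.01 and -2.01, and Klrg1 passed (adjusted p = 0.213 for Il10, 0.0403 for Klrg1 and 0.123 for Itgb1).

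That test called 4 of 11887 genes (0.0337%), 343 with an unadjusted p under 0.05, and 8 with a block on the replicate number. They are named here after their values were seen. Myo1f, an unconventional myosin, was at 8.34, 12.8 and 12.2 FPKM in wild type Nrp1-negative Treg, against 13.8, 11.2 and 8.34 FPKM in wild type Tconv. Its level was 9.76, 9.41 and 12.7 FPKM in CD28-deficient Nrp1-negative Treg, against 0.717, 0.706 and 1.8 FPKM in CD28-deficient Tconv, and the difference between genotypes was -2.51 ± 0.38 (adjusted p = 0.0488). The gap lay in the Tconv libraries, which were low in CD28-deficient mice. Smtn, a smooth muscle cytoskeletal protein, was at 0.159, 0.246 and 0.196 FPKM in wild type Nrp1-negative Treg, against 3.88, 2.37 and 1.997 FPKM in wild type Tconv, and at 0.172, 0.17 and 0.175 FPKM in CD28-deficient Nrp1-negative Treg, against 0.148, 0.143 and 0.122 FPKM in CD28-deficient Tconv (-1.65 ± 0.24). Sostdc1, a secreted antagonist of BMP and Wnt signals, was at 0.222, 0.292 and 0.115 FPKM in wild type Nrp1-negative Treg, against 1.76, 2.89 and 3.16 FPKM in wild type Tconv and listed at 0 in all 6 CD28-deficient libraries of these populations (-1.56 ± 0.23). The long noncoding RNA Miat was at 3.49, 3.16 and 3.73 FPKM in wild type Nrp1-negative Treg, against 0.122, 0.139 and 0.165 FPKM in wild type Tconv, and at 0.677, 0.283 and 0.431 FPKM in CD28-deficient Nrp1-negative Treg, against 0.0371, 0.00953 and 0 FPKM in CD28-deficient Tconv (1.44 ± 0.21). Smtn, Sostdc1 and Myo1f passed also without the 3 libraries that stood apart (adjusted p = 0.0403, 0.0381 and 0.0381), whereas Miat did not (0.123). With 1 library left out the test gave 4 calls without wild type Tconv replicate 3, 2 without wild type Tconv replicate 1 or CD28-deficient Nrp1-negative Treg replicate 1, and 0 without any 1 of the other 9. How far the Treg genes in CD28-deficient Tconv replicate 3 bear on these differences was not tested.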

How the data were processed

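RNA was sequenced from sorted mouse spleen T cells, as NEBNext Ultra libraries of total RNA with single reads of 50 nt, per the labels. The deposited values are FPKM, 1 per gene symbol and library. Trimmomatic 1, Cufflinks, TopHat2 2.0.11 and the build GRCm38 are given in the submitters' processing notes. No header names the unit, which was taken from the use of Cufflinks and the range of values. The annotation and strand setting are not given in the sources used here, so genes that overlap or share sequence are uncertain. Low values gave no whole-read steps, so no reads were recovered.

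Groups came from the sample titles. log2(FPKM + 1) of only the compared libraries was fitted with limma 3.58.1 in R 4.3.3, with 1 mean per group and a variance trend (4 residual degrees of freedom for the wild type comparison, two-sided tests). The difference between genotypes was fitted over 12 libraries. The same filter was kept in all fits that left libraries out. The code was tested on simulated data. Same-numbered libraries deviated together from their group means (correlations of 0.611, 0.123 and 0.567 for numbers 1, 2 and 3), so the numbers were taken to pair them, and fits with a block for the number stand beside the counts. Changes, standard errors and p-values of single genes and the list counts are from fits without that block.

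The members, the 33 gene lists with 534 entries and the naming rule were chosen with earlier results of these data known. The rule names 16 genes whatever their p (such as Foxp3, Nrp1, Cd28 and Il7r), the 15 largest called changes each way without overlap, leaving out unnamed models, receptor segments, microRNA, snoRNA and pseudogene symbols, and at most 4 called members of a list. Of 481 distinct list genes, 474 matched by symbol and 7 by a RefSeq synonym, among them Izumo1r as Folr4. Positions and promoters are from RefSeq on GRCm38.p6, and the authors' gene models may be other ones. Of 75 named genes 75 had a position and 49 had a promoter window. Some list members that count in these totals are not reported here.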

Additional observations from a re-analysis of the deposited data

How the results depend on the processing

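The count of calls between Nrp1-negative Treg and Tconv, 353, was 36 with no filter on low values, 219 with no variance trend, 541 with a replicate block and 1145 without both libraries numbered 1. It stayed within 1.5 times with a pseudocount of 0.1, quantile normalization, median-of-ratios scaling, all 9 wild type or all 18 libraries. Leaving out 1 library gave 238 to 391. Of the 353, 81 were lost after quantile normalization and 35 without both libraries numbered 1. The replicate block changed the call of 0 of 75 named genes, while no filter lost 52. Anxa4, Plxnd1, Il9r and S100a8 did not pass with a pseudocount of 0.1 or with no variance trend, nor did Il21, Gpr15, Entpd1 and Il1r2 with no variance trend. Of 66 named calls, 45 held in all 6 fits that left out 1 library and 21 were lost in at least 1. Without Nrp1-negative Treg replicate 1, Rgs1 and Gzmk lost the call at changes of 2.98 and -1.84, beside 2.90 and -1.77 with all 6 libraries. Pde3b and Dapl1 lost it at -1.80 and -1.83, beside -2.09 and -2.07. Cd3e changed sign to 0.03 without both libraries numbered 1, and Mki67 to 0.08 with median-of-ratios scaling and 0.04 without Tconv replicate 2 (-0.19 to 0.04 with 1 library left out). Neither was called.

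Against Nrp1+ Treg, 301 calls became 13 with no filter, 193 with no variance trend, 588 with all 18 libraries, 662 after quantile normalization, 716 with median-of-ratios scaling and 968 with a replicate block, and 176 to 420 with 1 library left out. For the difference between genotypes, 4 calls became 0 with a pseudocount of 0.1, no variance trend or median-of-ratios scaling, 1 with no filter or quantile normalization, 9 with all 18 libraries, 8 with a replicate block, 10 without the 3 libraries that stood apart (both wild type libraries numbered 1 and CD28-deficient Tconv replicate 3), and 0 to 4 with 1 library left out. The causes were not tested. Depth is unknown, so no counting error could be given, and small changes of genes at low FPKM may not be detectable.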

Other observations

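Of the 353 called genes, 100 fell outside the naming rule by their symbols, 24 of them microRNA or small nucleolar RNA loci. The values here were chosen after they were seen. Mir24-1, a microRNA locus, was at 247, 100.5 and 238 FPKM in wild type Nrp1-negative Treg and 183, 98.3 and 164 FPKM in wild type Nrp1+ Treg, and listed at 0 in all 3 wild type Tconv libraries, so no fold is given. It was at 60.2, 0 and 0 FPKM in CD28-deficient Nrp1-negative Treg, against 0 in each CD28-deficient Tconv library. FPKM here is that of the locus and not of the mature RNA. Its mature products are credited to RefSeq on GRCm38.p6 (chr13:63301213-63301235 and chr13:63301251-63301272, plus strand) and shown because this locus had the largest change on the log2(FPKM + 1) scale of the 353 called genes, with the seed, bases 2 to 8, in capitals.
mmu-miR-24-1-5p: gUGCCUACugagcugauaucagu
mmu-miR-24-3p: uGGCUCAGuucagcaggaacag

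The gene model Gm10132 was at 159.6, 234 and 196 FPKM in Nrp1-negative Treg, against 0.291, 0 and 0 FPKM in Tconv. In CD28-deficient libraries Gm10132 was at 259, 232 and 0.429 FPKM in Nrp1-negative Treg, against 159.7, 0.338 and 0 FPKM in Tconv, so single libraries of both groups went against their group. Gm4956 was at 29.3, 49.7 and 41.2 FPKM in Nrp1-negative Treg, against 0.147, 0.786 and 0.481 FPKM in Tconv. Small nucleolar RNA loci were uneven within groups: Snord38a was at 571, 0 and 0 FPKM in Nrp1-negative Treg, against 873, 397 and 775 FPKM in Tconv and was called lower with overlap between the groups, since Nrp1-negative Treg replicate 1 was above Tconv replicate 2. Snord35b was even in Tconv, at 121, 406 and 259 FPKM in Nrp1-negative Treg, against 1559, 1594 and 1553 FPKM in Tconv.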
